A study of Rattus norvegicus with 24 samples.

Results

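The genes described here carry water and urea across the cells of the kidney, together with the receptor through which vasopressin controls them. They are 6 aquaporins (Aqp1, Aqp2, Aqp3, Aqp4, Aqp6 and Aqp7), the urea transporters Slc14a1 and Slc14a2, and the vasopressin type 2 receptor Avpr2. Their probe sets were taken by gene symbol, as all those of both arrays whose only symbol was one of these 9, and 19 of 31142 probe sets met that rule, 17 on RAE230A and 2 on RAE230B. By gene these were 9 of 13810.

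Left kidney RNA was measured in male rats of 3 strains. ET3x2 and ET3x1 are substrains bred onto the background of SS/jr, the inbred Dahl salt-sensitive rat, called S. From general knowledge of these strains, each substrain carries a stretch of chromosome 3 from a salt-resistant strain, with the rest of the genome largely from S. The limits of each stretch were not analysed here. All rats, S included, ate chow with 0.4% NaCl until 39 to 41 days of age and then chow with 2% NaCl for 28 days, and they were 67 to 69 days old at the end. No group stayed on the lower salt diet, so every value belongs to salt-fed rats. RNA of 3 rats was pooled in ET3x2 and ET3x1 and of 2 rats in S. This gave ET3x2 pools I, J, K and L, ET3x1 pools E, F, G and H, and S pools A, B, C and D, 12 pools of 32 rats in all. Both Affymetrix arrays were run once per pool, which makes 24 arrays, and 1 pool counts as 1 replicate.

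Vasopressin is released when body water is short. In principal cells of the collecting duct it binds Avpr2 on the blood side, which raises cyclic AMP through the G protein subunit Gnas and adenylyl cyclase and activates protein kinase A. The kinase then sends vesicles loaded with Aqp2 to the urine side of the cell and, through the transcription factor Creb1, raises Aqp2 transcription. Water that enters through Aqp2 leaves through Aqp3 and Aqp4 on the blood side. Aqp1 serves the bulk uptake of water in the proximal tubule and the thin descending limb, Aqp7 carries glycerol and water in the last stretch of the proximal tubule, and Aqp6 sits in vesicles of acid-secreting intercalated cells. Slc14a2 gives the UT-A urea transporters of the inner medullary collecting duct and thin limb, and Slc14a1 gives UT-B of the descending vasa recta and of red blood cells.

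Of the member probe sets tested, those with an unadjusted p under 0.05 between ET3x1 and S belonged to Aqp2, Avpr2 and Slc14a1. The promoters of these genes are shown for that reason, and because Creb1, which acts on the Aqp2 promoter, differed between the substrains. Creb1 was not called between ET3x1 and S, and a link from Creb1 to Aqp2 was not tested. Each promoter is the 250 bases before the annotated gene start, 5′ to 3′, from RefSeq on the assembly GRCr8. Capitals mark matches on either strand to 2 motifs. The core of the cyclic AMP response element was searched as TGACG. The motif of GATA factors, which are made in principal cells, was searched as AGATAA.
Aqp2 (chr7:132590036-132590285, plus strand): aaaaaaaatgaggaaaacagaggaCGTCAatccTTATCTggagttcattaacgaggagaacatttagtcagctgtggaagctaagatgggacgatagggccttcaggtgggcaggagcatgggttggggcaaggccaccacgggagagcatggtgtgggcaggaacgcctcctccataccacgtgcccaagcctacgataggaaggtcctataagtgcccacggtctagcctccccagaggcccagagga
Avpr2 (chrX:156784889-156785138, plus strand): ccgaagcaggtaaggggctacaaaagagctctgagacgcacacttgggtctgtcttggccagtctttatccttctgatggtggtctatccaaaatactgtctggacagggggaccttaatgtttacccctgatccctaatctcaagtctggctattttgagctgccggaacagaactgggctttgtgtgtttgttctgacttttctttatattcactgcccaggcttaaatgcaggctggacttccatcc
Slc14a1 (chr18:73864644-73864893, minus strand): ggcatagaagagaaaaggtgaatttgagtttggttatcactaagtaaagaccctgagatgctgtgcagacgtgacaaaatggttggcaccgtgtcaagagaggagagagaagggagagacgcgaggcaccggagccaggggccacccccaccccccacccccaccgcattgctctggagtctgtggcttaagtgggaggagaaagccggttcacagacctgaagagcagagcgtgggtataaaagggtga
Only the Aqp2 window held either motif. Both matches were on its reverse strand, the response element core at bases −226 to −222 and the GATA motif at −217 to −212 from the gene start, and they did not overlap. The other windows found for members, 10 in all for 8 of the 9 genes, held neither. Of 33469 windows of this length, 18.2% held the response element core and 10.3% the GATA motif. A match describes the letters and not a bound factor, and these are letters of the reference rat rather than of the strains measured. RefSeq promoters were not matched for Aqp7.

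No member lies on chromosome 3. Aqp1 is on chromosome 4. Aqp3 and Aqp7 are neighbours on chromosome 5, and Aqp2 and Aqp6 lie on chromosome 7 with Aqp5 between them. Slc14a1 and Slc14a2 are neighbours on chromosome 18, which also holds Aqp4, and Avpr2 is on the X chromosome.

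Signals are log2 values, and a difference of 1 is a doubling. A probe set was tested where its mean over 12 pools reached the 30th percentile of its array, which was 7.52 on RAE230A and 6.85 on RAE230B. Of the 19 member probe sets, 13 were tested, for 8 genes, and 6 lay under the filter. Those 6 were the only probe set of Aqp6, 2 of the 3 for Aqp4, 1 of the 3 for Avpr2 and 2 of the 5 for Slc14a2. Because probe sets differ in how brightly they bind, no level is set against that of another probe set.

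ET3x2 pool J and S pools A and B stood apart in 1 of 2 controls of RNA quality. Their beta-actin control signal at the 5′ end minus the 3′ end was −1.27 to −1.14 on RAE230A, against −2.10 to −1.66 in the other 9 pools, and on RAE230B −1.39 to −1.07 against −2.11 to −1.52. The GAPDH control overlapped, at −0.81 to −0.64 against −1.04 to −0.71 on RAE230A and −0.90 to −0.61 against −1.12 to −0.62 on RAE230B. By the actin control, these 3 pools had the smallest excess of 3′ over 5′ signal. Results below are also given without these 3 pools where that moves them, which keeps the pools with the larger excess. S pools C and D, ET3x2 pools I, K and L and all ET3x1 pools then remain. Of the kidney markers on the arrays, 12 of 12 for the proximal tubule, 8 of 8 for the thick ascending limb and 10 of 11 for principal cells passed the filter. So did 6 of 7 urothelium and 7 of 11 adipocyte markers, so that passing it does not by itself identify the tissue.

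No member passed an adjusted p of 0.05 in any comparison of strains. Between ET3x2 and S, 0 of 13 probe sets were called by limma, where 0.344% of all 21799 tested probe sets were called, and the smallest adjusted p was 0.47. Between ET3x1 and S, 0 of 13 were called against 0.44% of all, with a smallest adjusted p of 0.144. Between ET3x2 and ET3x1, 0 of 13 were called against 1.48% of all, with a smallest adjusted p of 0.184. A count of 0 in 13 is near these shares. An unadjusted p under 0.05 was met by 0, 3 and 2 of the 13 in these comparisons, against 10.9%, 11.8% and 13.1% of all probe sets. In a kidney RNA pool, fewer cells of a type and less RNA per cell cannot be told apart.

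Each interval is for 1 probe set and 1 comparison, without adjustment, and gives the range of differences that its values allow. For 12 of the 13 probe sets, the 95% confidence interval of every comparison lay within 0.5 on the log2 scale, which is 1.41-fold either way. Over these 12 the intervals ran from −0.32 to 0.43 for ET3x2 minus S, from −0.45 to 0.25 for ET3x1 minus S and from −0.30 to 0.45 for ET3x2 minus ET3x1. The exception was the Aqp1 probe set 1387651_at, with intervals of −0.70 to 0.54, −1.14 to 0.10 and −0.18 to 1.06. Between pools of a strain the SD was 0.074 to 0.17 for the 12 and 0.51 for that probe set.

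**Figure D1:**
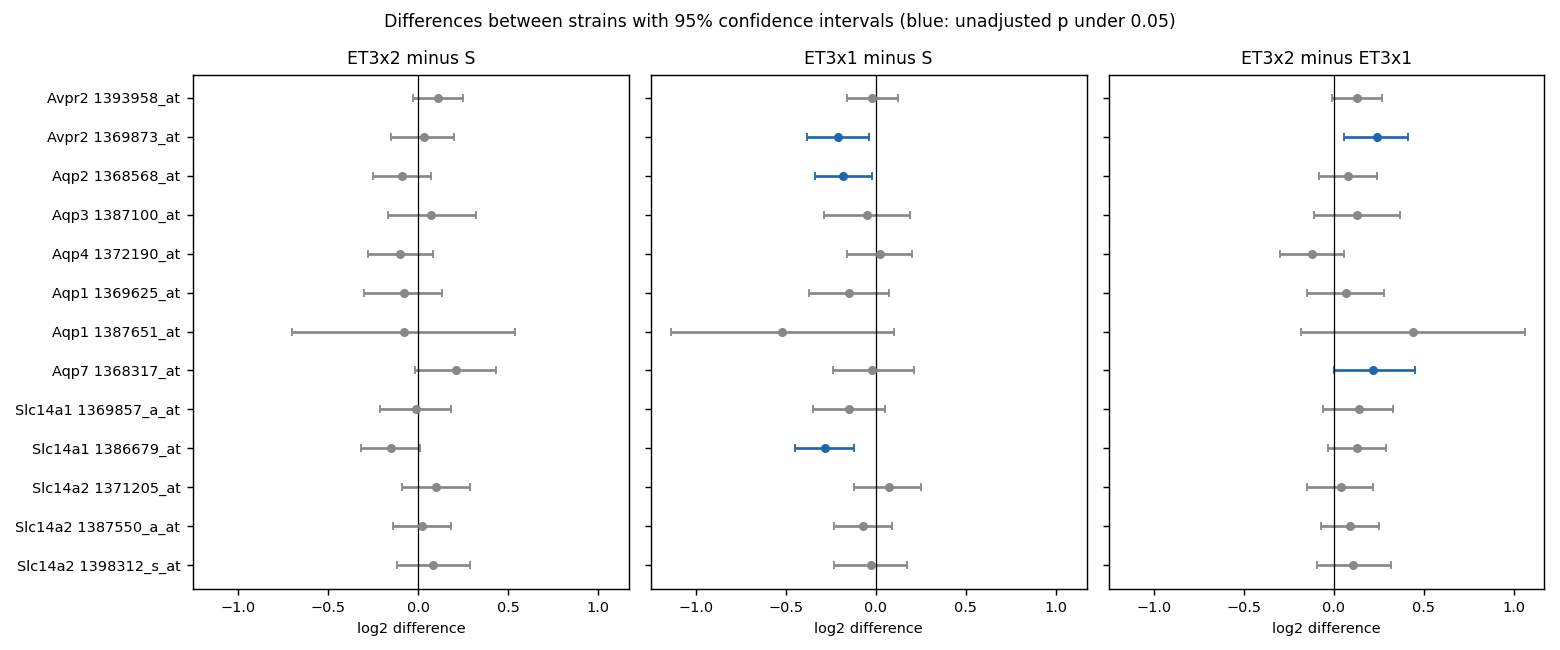
Log2 difference (x axis) of the 13 tested member probe sets (rows) for each pair of strains, ET3x2 minus S, ET3x1 minus S and ET3x2 minus ET3x1. Points are limma estimates from 4 pools a strain, bars are 95% confidence intervals, and blue marks an unadjusted p under 0.05; no probe set passed after adjustment, and only the Aqp1 probe set 1387651_at has intervals reaching past 0.5.

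The directions differed between comparisons, though no single difference was called and the counts of directions were not tested. In ET3x1 minus S, 11 of 13 differences were below 0 and 2 above, with a median of −0.07, where 51.6% of all probe sets were below 0 and their median was −0.0047. In ET3x2 minus S, 6 were below 0 and 7 above, with a median of 0.02, against 41.0% and a median of 0.025 for all probe sets. In ET3x2 minus ET3x1, 1 was below 0 and 12 above, with a median of 0.13, against 39.2% and 0.032. The comparisons share pools, so that these counts are not separate evidence. The 13 also share genes and pools with each other.

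Avpr2, the receptor at the head of the pathway, was read by 2 tested probe sets that differed in what they showed. On 1369873_at the signal was 9.26, 9.27, 9.22 and 9.13 in ET3x2 pools I to L, 8.96, 9.09, 8.82 and 9.06 in ET3x1 pools E to H, and 9.08, 9.34, 9.20 and 9.15 in S pools A to D. All ET3x1 pools were below all ET3x2 pools, which held for no other of the 13 tested probe sets in that comparison and for 9.15% of all tested probe sets. ET3x1 pool F lay just above the lowest S pool, A. ET3x2 minus ET3x1 was 0.24 (SE 0.081, interval 0.06 to 0.41, n = 4 pools each, limma adjusted p = 0.184). ET3x1 minus S was −0.21 (SE 0.081, interval −0.38 to −0.04, adjusted p = 0.296), and ET3x2 minus S was 0.03 (adjusted p = 0.925).

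The other Avpr2 probe set, 1393958_at on RAE230B, gave 10.14, 10.20, 10.22 and 10.17 in ET3x2, 10.00, 10.17, 9.95 and 10.09 in ET3x1, and 10.14, 10.09, 10.09 and 9.96 in S. Here ET3x1 lay within the range of S except for pool F above it and pool G just below it, and ET3x1 minus S was −0.02 (SE 0.064, interval −0.16 to 0.12, adjusted p = 0.944). ET3x2 minus S was 0.11 (interval −0.03 to 0.25, adjusted p = 0.586), with no overlap beyond the second decimal, where the lowest ET3x2 pool and the highest S pool were both at 10.14. ET3x2 minus ET3x1 was 0.13 (interval −0.01 to 0.27, adjusted p = 0.486). The ET3x1 difference of the first probe set was thus not seen in the second, though ET3x2 stood above ET3x1 in the mean of both. The third probe set, 1371265_at, was under the filter, at 7.24 to 7.53 in ET3x2, 7.25 to 7.39 in ET3x1 and 7.28 to 7.57 in S.

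Aqp2, the water channel that vasopressin sends to the urine side of the cell, had 1 probe set. It gave 12.61, 12.63, 12.65 and 12.65 in ET3x2 pools I to L, 12.43, 12.77, 12.47 and 12.54 in ET3x1 pools E to H, and 12.72, 12.78, 12.72 and 12.69 in S pools A to D. The ET3x2 pools were all below the S pools and spread by an SD of 0.018, and 3 of the 4 ET3x1 pools were lower than every ET3x2 pool, while ET3x1 pool F lay inside the range of S. ET3x1 minus S was −0.18 (SE 0.075, interval −0.34 to −0.02, 0.885-fold, adjusted p = 0.333), and ET3x2 minus S was −0.09 (interval −0.25 to 0.07, adjusted p = 0.679). Groups did not overlap in this and in 1 more of 13 members between ET3x2 and S, the Avpr2 probe set above, against 5.95% of all probe sets. A fall of Aqp2 beyond 0.34 in ET3x1 or beyond 0.25 in ET3x2 lay outside the intervals.

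The exit channels of the same cell were Aqp3 and Aqp4. Aqp3 gave 10.73, 10.78, 10.91 and 10.94 in ET3x2, 10.71, 11.09, 10.52 and 10.54 in ET3x1, and 10.69, 10.84, 10.83 and 10.70 in S. The ET3x1 pools held both the highest value, in F, and the lowest values, in G and H, so that the strains overlapped throughout. Its differences were 0.07 for ET3x2 minus S (interval −0.17 to 0.32), −0.05 for ET3x1 minus S (−0.29 to 0.19) and 0.13 for ET3x2 minus ET3x1 (−0.11 to 0.37), and the smallest adjusted p was 0.624. ET3x2 minus ET3x1 depended on single ET3x1 pools: it was 0.25 without F (adjusted p = 0.118), 0.06 without G and 0.07 without H. Aqp2 and Aqp3 were both highest among ET3x1 pools in F, and their r over the 12 pools was 0.64.

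Aqp4 was read by 1372190_at, at 7.87, 7.82, 7.86 and 8.12 in ET3x2, 8.16, 8.01, 8.02 and 7.95 in ET3x1, and 7.98, 7.99, 8.17 and 7.92 in S. Except for pool L, ET3x2 lay below both other strains. ET3x2 minus S was −0.10 (interval −0.28 to 0.08, adjusted p = 0.688) and ET3x2 minus ET3x1 was −0.12 (interval −0.30 to 0.06, adjusted p = 0.524), the only difference below 0 between the substrains among the 13 tested probe sets. Both of its other probe sets were under the filter. On 1368981_at, at 6.60 to 6.84 in ET3x2, 6.76 to 6.86 in ET3x1 and 6.62 to 6.70 in S, ET3x1 did not overlap S, as in 6.4% of all tested probe sets. A fit without the filter gave 0.15 for ET3x1 minus S (adjusted p = 0.334) and −0.13 for ET3x2 minus ET3x1 (adjusted p = 0.364). On 1387397_at the means were 5.73 in ET3x2, 5.75 in ET3x1 and 5.73 in S.

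**Figure D2:**
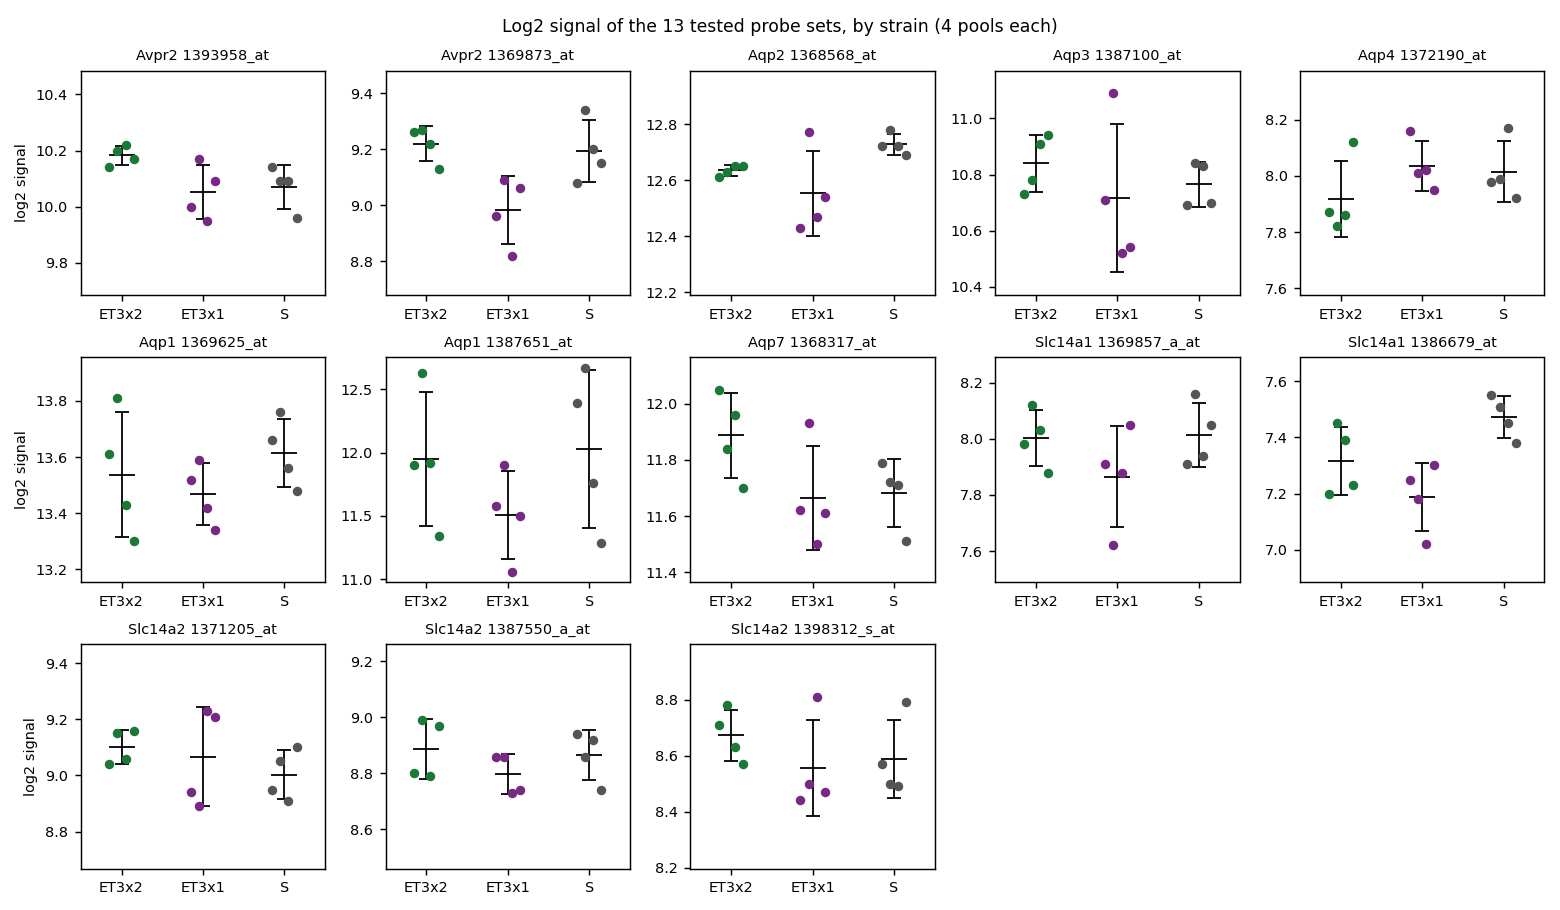
Log2 signal (y axis, a range of its own in each panel) of the 13 tested member probe sets in ET3x2, ET3x1 and S. Points are pools, 4 a strain, with the mean and SD as bars; strains overlap in most panels, and ET3x1 lies below S without overlap for Slc14a1 1386679_at.

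Principal cell genes outside the members give the setting for these values. Of 12 principal cell markers, 10 were tested, and 0 were called in any comparison by limma (smallest adjusted p = 0.135). Their median difference was 0.083 for ET3x2 minus S, 0.034 for ET3x1 minus S and 0.102 for ET3x2 minus ET3x1, and their mean level per pool was 9.69 to 9.78 in ET3x2, 9.59 to 9.75 in ET3x1 and 9.62 to 9.70 in S. In ET3x1 minus S, 6 were above 0 and 4 below. Of the epithelial sodium channel subunits, Scnn1a was at 0.09, Scnn1b at −0.14 and Scnn1g at −0.15 in that comparison (adjusted p = 0.715, 0.395 and 0.444). Scnn1b was at 0.23 in ET3x2 minus ET3x1 (adjusted p = 0.135), with 9.37 to 9.49 in ET3x2 and 9.16 to 9.35 in ET3x1.

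Aqp1 was the member with the widest spread, and its 2 probe sets spread unequally. On 1387651_at the signal was 11.90, 12.63, 11.92 and 11.34 in ET3x2 pools I to L, 11.58, 11.90, 11.06 and 11.50 in ET3x1 pools E to H, and 12.39, 12.67, 11.76 and 11.29 in S pools A to D. The highest values, 12.39 to 12.67, were those of pools A, B and J, the pools with the highest actin 5′ minus 3′ signal, against 11.06 to 11.92 in the other 9. ET3x1 minus S was −0.52 (SE 0.29, interval −1.14 to 0.10, adjusted p = 0.45), and without pools A, B and J it was −0.02. ET3x2 minus S was −0.08 with all pools and 0.20 without these 3, and it also changed sign when pool A, B or L alone was left out.

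The other Aqp1 probe set, 1369625_at, gave 13.61, 13.81, 13.43 and 13.30 in ET3x2, 13.52, 13.59, 13.42 and 13.34 in ET3x1, and 13.66, 13.76, 13.56 and 13.48 in S. It was also highest in A, B and J, at 13.66 to 13.81 against 13.30 to 13.61 in the other 9, but over a narrower range. ET3x1 minus S was −0.15 (interval −0.37 to 0.07, adjusted p = 0.54), and −0.05 without A, B and J. Within an array, 1387651_at minus 1369625_at was −1.27 to −1.09 in A, B and J and −2.37 to −1.50 in the other 9 pools, without overlap. The part of RNA quality in the Aqp1 values was not tested beyond this and the relation to the actin signal given below.

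**Figure D3:**
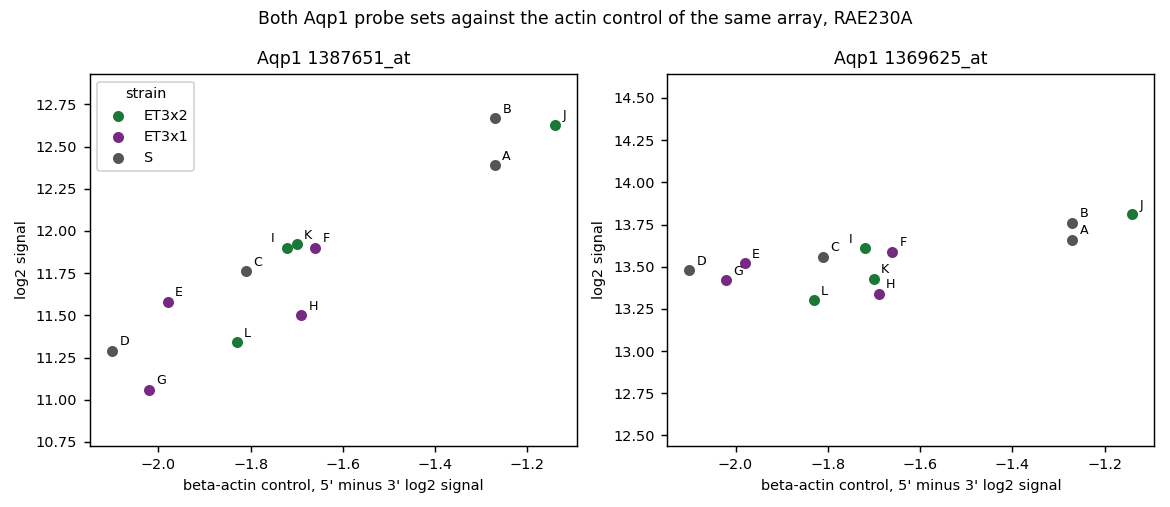
Log2 signal of the Aqp1 probe sets 1387651_at and 1369625_at (y axis) against the beta-actin 5′ minus 3′ control signal of the same RAE230A array (x axis). Points are the 12 pools, lettered and coloured by strain; pools A, B and J lie apart at the right and hold the highest Aqp1 signals of both probe sets.

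Among the other 9 pools the actin signal of the same array also ran with some members. The relation was computed for all 13 probe sets with exact permutation tests, two-sided and adjusted over the 13. Pools were permuted without regard to strain, so that a relation can also carry differences between strains. Relations within a strain were not tested. For Avpr2 1393958_at, Pearson's r was 0.87 (exact p = 0.00293, adjusted p = 0.0381) and Spearman's rho 0.78 (exact p = 0.0172, adjusted p = 0.224), with r at 0.69 when the 2 pools farthest from the median, D and G, were left out. For Aqp7, r was 0.77 and rho 0.63 (exact permutation, adjusted p = 0.104 and 0.329), with r at 0.59 without D and G. For Aqp1 1387651_at, r was 0.75 and rho 0.70 (exact permutation, adjusted p = 0.104 and 0.281), with r at 0.49 without D and G. For the other 10, r lay between −0.49 and 0.49, and the smallest adjusted p was 0.439. These also moved without D and G, with r going from −0.26 to −0.75 for Aqp4 and from 0.38 to 0.61 for Aqp2. Among those that changed sign were Slc14a2 1398312_s_at, from −0.49 to 0.40, and Slc14a2 1387550_a_at, from 0.21 to −0.51. On RAE230A the lowest actin signal was −1.83 in ET3x2, −2.02 in ET3x1 and −2.10 in S. On RAE230B, the array of Avpr2 1393958_at, it was −1.79 in ET3x2, −2.0 in ET3x1 and −2.11 in S.

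Aqp7, the glycerol channel of the late proximal tubule, gave 12.05, 11.84, 11.96 and 11.70 in ET3x2, 11.62, 11.93, 11.50 and 11.61 in ET3x1, and 11.79, 11.72, 11.71 and 11.51 in S. In ET3x2, 3 of 4 pools lay above every S pool, but pool L did not, and ET3x1 pool F lay within the range of ET3x2. The difference ET3x2 minus S was 0.21 (SE 0.10, interval −0.02 to 0.43, 1.15-fold, adjusted p = 0.47), and ET3x2 minus ET3x1 was 0.22 (interval 0.00 to 0.45, adjusted p = 0.329). ET3x1 minus S was −0.02 (interval −0.24 to 0.21). Aqp7 and Avpr2 1369873_at were the 2 members that passed in any alternative: with arrays weighted by quality, ET3x2 minus ET3x1 was 0.31 for Aqp7 (adjusted p = 0.0282) and 0.26 for that Avpr2 probe set (adjusted p = 0.0314). Under these weights 7.61% of all probe sets were called, and over the other alternatives the smallest adjusted p of a member was 0.0932.

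Proximal tubule markers, 12 of 12 tested, were called in no comparison by limma (smallest adjusted p = 0.139), with medians of 0.035, 0.02 and 0.027 for ET3x2 minus S, ET3x1 minus S and ET3x2 minus ET3x1. Aqp7 is also abundant in fat cells. Of 12 adipocyte markers, 7 were tested and 0 were called, with medians of 0.054, −0.065 and 0.105 for the comparisons in the same order. In ET3x2 minus S 6 of the 7 were above 0, in ET3x1 minus S 1, and in ET3x2 minus ET3x1 all 7. Aqp7 had the same signs, but its ET3x1 minus S of −0.02 changed sign without pools A, B and J. Of all probe sets, 41.0%, 51.6% and 39.2% were below 0 in these comparisons, which share pools. Of 6 tested urothelium markers, 5, 3 and 6 were above 0 in the same order. The largest adipocyte marker difference was that of Cidea, of lipid droplets, with ET3x2 minus ET3x1 at 0.32 (SE 0.089, limma adjusted p = 0.113). It gave 8.18 to 8.41 in ET3x2, 7.81 to 8.07 in ET3x1 and 7.92 to 8.20 in S. The substrains did not overlap, as in 9.15% of all tested probe sets. Adipoq, a defining fat cell gene, was at 0.01 in that comparison. The mean level of the adipocyte markers per pool was 8.96 to 9.02 in ET3x2, 8.79 to 8.99 in ET3x1 and 8.91 to 8.98 in S. The fat cell genes Plin1, Lep, Cfd and Ucp1 lay under the filter, at means of 6.58, 7.38, 6.70 and 7.45, and the part of fat in the Aqp7 values was not tested.

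The glycerol and fat breakdown genes set beside Aqp7 were 6, all tested on the probe set with the highest mean, and 0 were called. Mgll, the lipase that releases glycerol from monoglycerides, was at 0.36 in ET3x2 minus S (adjusted p = 0.312) on 1388644_at. A second Mgll probe set, 1370831_at, given here after its values were seen, read the gene otherwise. It gave a mean of 10.26 in ET3x2, 12.06 in ET3x1 and 10.68 in S. ET3x1 minus S was 1.38 (SE 0.22, adjusted p = 0.02) and ET3x2 minus ET3x1 was −1.80 (SE 0.22, adjusted p = 0.00124), where 1388644_at gave 0.00 and 0.36. The remaining tested Mgll probe set, 1375247_at, gave 0.42 (adjusted p = 0.174) and −0.24 (adjusted p = 0.346), in the directions of 1370831_at. In ET3x2 minus S, 1370831_at was at −0.42 (limma adjusted p = 0.489). There 1375247_at was at 0.19 (limma adjusted p = 0.554), in the direction of 1388644_at.

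Aqp6, in the vesicles of intercalated cells, had 1 probe set and it was under the filter, at 7.41, 7.29, 7.17 and 7.24 in ET3x2, 7.38, 7.28, 7.45 and 7.42 in ET3x1, and 7.12, 7.49, 7.11 and 7.38 in S. The strains overlapped, and a fit without the filter gave no adjusted p under 0.655. Over the 6 member probe sets under the filter, the smallest adjusted p of that fit was 0.939 for ET3x2 minus S, 0.334 for ET3x1 minus S and 0.364 for ET3x2 minus ET3x1. Intercalated cell markers, 8 of 10 tested, had 1 call. Atp6v1b1, a proton pump subunit, was higher in ET3x1 than in S by 0.33 (limma adjusted p = 0.0483). This call was lost in 14 of 20 alternatives. Of all tested probe sets 0.44% were called in ET3x1 minus S, and 94 of these 96 calls were higher in ET3x1.

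Slc14a1, the urea transporter of the vasa recta, held the smallest adjusted p of any member. On 1386679_at it gave 7.20, 7.45, 7.39 and 7.23 in ET3x2, 7.25, 7.18, 7.02 and 7.30 in ET3x1, and 7.55, 7.51, 7.45 and 7.38 in S. All ET3x1 pools lay below all S pools, and ET3x2 lay across both. ET3x1 minus S was −0.28 (SE 0.076, interval −0.45 to −0.12, 0.821-fold, adjusted p = 0.144), and leaving out any 1 pool kept it between −0.32 and −0.23. Of the 13 tested member probe sets it was the only one without overlap between ET3x1 and S, where 6.4% of all tested probe sets had none. For ET3x2 minus S it was −0.15 (interval −0.32 to 0.01, adjusted p = 0.512).

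The second Slc14a1 probe set, 1369857_a_at, gave 7.98, 8.12, 8.03 and 7.88 in ET3x2, 7.91, 7.62, 7.88 and 8.05 in ET3x1, and 7.91, 8.16, 7.94 and 8.05 in S. Pool F was lowest, and ET3x1 pool H lay inside the range of S. ET3x1 minus S was −0.15 (interval −0.35 to 0.05, adjusted p = 0.492), and without pool F it was −0.07. ET3x2 minus S was −0.01 (interval −0.21 to 0.18). Slc14a1 is made in the endothelium of the vasa recta and in red blood cells. Endothelium markers, 6 of 9 tested, and red cell markers, 4 of 10 tested, had 0 calls in all comparisons by limma (smallest adjusted p = 0.171 and 0.23). In ET3x1 minus S their medians were 0.017 and −0.05. The mean level of the red cell list per pool was 10.02 to 10.26 in ET3x2, 10.02 to 10.12 in ET3x1 and 10.06 to 10.18 in S.

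Slc14a2 was read by 3 tested probe sets, which the deposited tables do not assign to the UT-A isoforms. On the brightest, 1371205_at, the signal was 9.04, 9.15, 9.06 and 9.16 in ET3x2, 8.94, 8.89, 9.23 and 9.21 in ET3x1, and 8.95, 9.05, 8.91 and 9.10 in S. ET3x1 pools G and H lay above every pool of the other strains, and ET3x1 pools E and F lay below every ET3x2 pool. For ET3x2 minus S the difference was 0.10 (interval −0.09 to 0.29), ET3x1 minus S was 0.07 (−0.12 to 0.25) and ET3x2 minus ET3x1 was 0.04 (−0.15 to 0.22).

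Of the other tested Slc14a2 probe sets, 1398312_s_at had an r of 0.52 with it over the 12 pools and was also highest in ET3x1 pool G, while 1387550_a_at had an r of −0.34. In ET3x1 minus S, 1387550_a_at was at −0.07 (interval −0.23 to 0.09) and 1398312_s_at at −0.03 (−0.23 to 0.17), and in ET3x2 minus S they were at 0.02 (−0.14 to 0.18) and 0.08 (−0.12 to 0.29). On 1387550_a_at the pools ran from 8.79 to 8.99 in ET3x2, 8.73 to 8.86 in ET3x1 and 8.74 to 8.94 in S, and on 1398312_s_at from 8.57 to 8.78, 8.44 to 8.81 and 8.49 to 8.79 in the same order. All strains overlapped on both. The remaining probe sets, 1370494_at and 1371204_at, were under the filter with strain means of 7.33 to 7.35 and 6.57 to 6.58.

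The inner medulla and thin limb lists bear on Slc14a2. Thin limb markers, 8 of 10 tested, had 0 calls by limma, with medians of 0.054, 0.004 and 0.006 for ET3x2 minus S, ET3x1 minus S and ET3x2 minus ET3x1 (smallest adjusted p = 0.397). Of 9 inner medulla and osmotic genes 7 were tested, and the myo-inositol carrier Slc5a3 alone was called. It was at −0.99 in ET3x2 minus S and −0.81 in ET3x2 minus ET3x1 on 1392349_at. Of all tested probe sets 0.344% and 1.48% were called in these comparisons, with 61 of 75 and 302 of 323 calls lower in ET3x2. A second Slc5a3 probe set, 1379066_at, at 7.35 to 7.52 over all pools, was at 0.04 and 0.08. Thick ascending limb markers, 8 of 10 tested, and urothelium markers, 6 of 8 tested, had 0 calls (smallest adjusted p = 0.192 and 0.387).

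Beyond the members, the vasopressin signalling list held 30 genes, of which 24 were tested. Against S, 0 were called by limma in either substrain: 13 were above 0 and 11 below in ET3x2, and 14 above and 10 below in ET3x1. Between ET3x2 and ET3x1, 12 were above 0 and 12 below, and 2 were called, Creb1 and Akap13, both lower in ET3x2. Of all tested probe sets 1.48% were called in that comparison, and 302 of these 323 calls were lower in ET3x2. The list's median was −0.001 in that comparison, against 0.032 for all probe sets.

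Creb1, through which protein kinase A turns on genes such as Aqp2, gave 8.26, 8.48, 8.14 and 8.42 in ET3x2 pools I to L, 8.85, 8.88, 9.05 and 8.84 in ET3x1 pools E to H, and 8.91, 8.79, 8.94 and 8.64 in S pools A to D. All ET3x2 pools lay below all pools of both other strains. ET3x2 minus ET3x1 was −0.58 (SE 0.092, adjusted p = 0.00792), a call kept in all 20 alternatives with an adjusted p of at most 0.0417. ET3x2 minus S was −0.50 (SE 0.092) and just missed the threshold (adjusted p = 0.0523), and ET3x1 minus S was 0.09 (adjusted p = 0.708). Aqp2 in the same pools was at 0.08 for ET3x2 minus ET3x1 (interval −0.08 to 0.24) and at −0.09 for ET3x2 minus S (interval −0.25 to 0.07), with all ET3x2 pools below all S pools. Creb1 had 1 tested probe set. A relation between Creb1 and Aqp2 was not tested.

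Akap13, an anchoring protein for protein kinase A, gave 10.18, 10.00, 10.17 and 10.45 in ET3x2, 10.63, 10.62, 10.58 and 10.63 in ET3x1, and 10.47, 10.19, 10.48 and 10.50 in S on 1382268_at. The ET3x1 pools, at 10.58 to 10.63, lay above all other pools, and ET3x2 minus ET3x1 was −0.42 (SE 0.093, adjusted p = 0.0341). This call was lost in 9 of 20 alternatives, which were quantile normalisation and leaving out pool C, E, F, G, H, I, J or K, with an adjusted p up to 0.129. A second Akap13 probe set, 1398369_at, was at −0.01 in the same comparison. Gnas, the G protein subunit that couples Avpr2 to adenylyl cyclase, was at 0.35 in ET3x2 minus ET3x1 (SE 0.10, adjusted p = 0.135) and at −0.28 in ET3x1 minus S (adjusted p = 0.281). Grk2, a kinase that switches off receptors of this class, was at 0.35 (adjusted p = 0.132) and −0.31 (adjusted p = 0.248) in these comparisons.

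**Figure D4:**
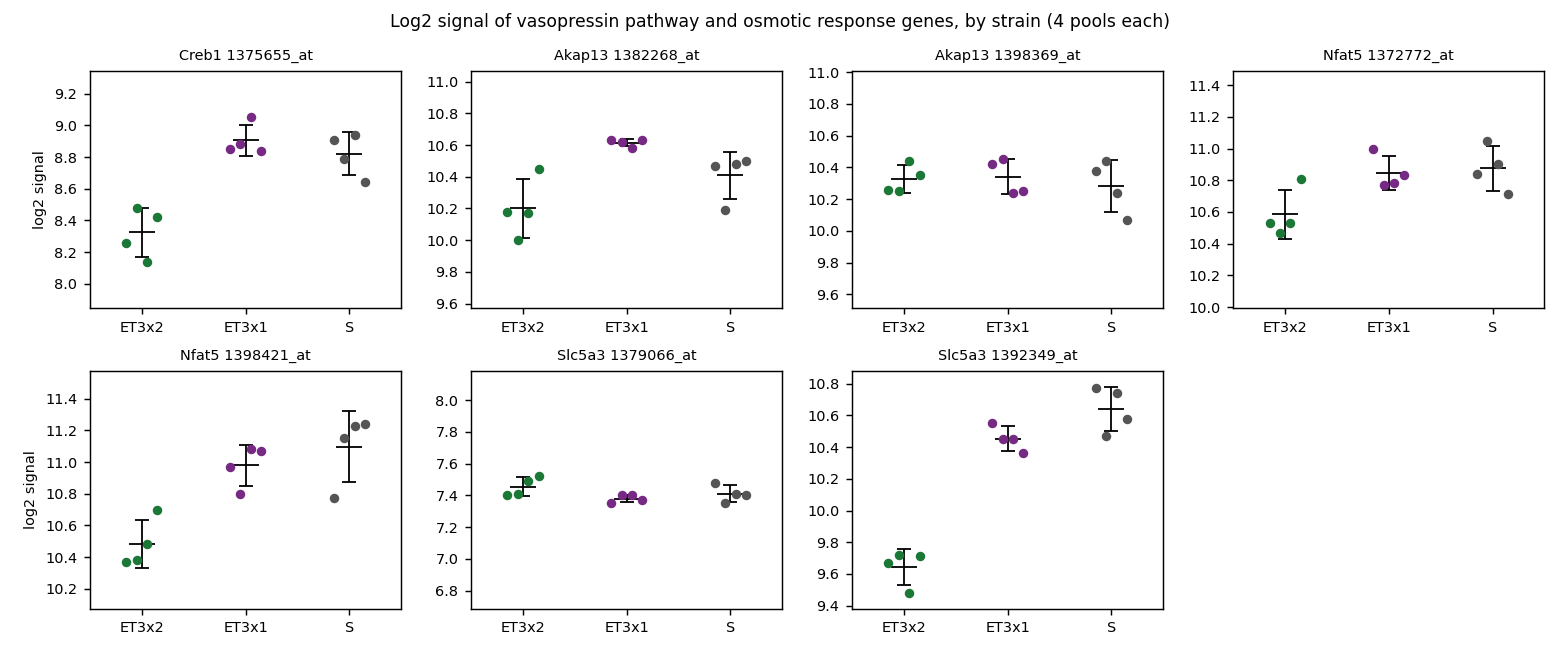
Log2 signal (y axis, a range of its own in each panel) of all tested probe sets of Creb1, Akap13, Nfat5 and Slc5a3 in ET3x2, ET3x1 and S. Points are pools, 4 a strain, with the mean and SD as bars; ET3x2 lies below both other strains without overlap for Creb1, Nfat5 1398421_at and Slc5a3 1392349_at.

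Genes that move Aqp2 protein within the cell or mark it for breakdown numbered 26, and 24 were tested. In both comparisons with S, 10 were above 0 and 14 below with 0 called, and between ET3x2 and ET3x1, 11 were above 0 and 13 below with 0 called. Nedd4, a ubiquitin ligase, came nearest on 1375119_at, at −0.94 in ET3x2 minus S (SE 0.19, adjusted p = 0.0704) and −0.82 in ET3x2 minus ET3x1 (adjusted p = 0.0546). The other Nedd4 probe sets were at −0.07 (1371314_at), −0.46 (1383899_at), −0.20 (1386263_at) and −0.44 (1395157_at) in ET3x2 minus S, and at 0.14, 0.54, 0.23 and 0.06 in ET3x2 minus ET3x1, none past the threshold. On 1383899_at pools J, A and B gave 9.65, 9.43 and 9.66, the highest of the 12. Myo5b, the motor that returns Aqp2 vesicles to the surface, was at 0.21 in ET3x2 minus S (adjusted p = 0.467).

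A further 9 genes of water and urea handling held 5 that were tested, and 0 were called by limma. Nfat5, the transcription factor that answers high salt in the medulla, missed narrowly on 1398421_at. It gave 10.37 to 10.70 in ET3x2, 10.80 to 11.08 in ET3x1 and 10.77 to 11.24 in S. ET3x2 lay below both without overlap, where 5.95% (against S) and 9.15% (against ET3x1) of all tested probe sets had none. The difference ET3x2 minus S was −0.62 (SE 0.11, adjusted p = 0.0523) and ET3x2 minus ET3x1 was −0.50 (adjusted p = 0.0533), while on 1372772_at these were −0.29 (adjusted p = 0.276) and −0.26 (adjusted p = 0.225). Aqp11, a channel of the proximal tubule's inner membranes, gave 9.87 to 10.07 in ET3x2, 9.39 to 10.33 in ET3x1 and 9.56 to 9.81 in S, and ET3x2 minus S was 0.25 (adjusted p = 0.596). Aqp5, Aqp9, Arg1 and Mip were under the filter.

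Members were also set beside every other tested gene of their array by the Pearson correlation of log2 signals over the 12 pools, as a description of pools that share strain, array and RNA quality. Aqp2 was most like Extl3, Eef1a1 and Nomo1, each with r = 0.89. Avpr2 1393958_at was most like Inava (0.96), Erg28 (0.93) and Rbbp6 (0.92), and Aqp7 most like Tex261 (0.94), Acp5 (0.93) and Ehhadh (0.92). Aqp1 1369625_at was most like Abcf1, Ctnnb1 and Synj2bp (0.94 each), Aqp3 like Cbx6, Tnfsf13 (0.91 each) and Vps45 (0.90), and Aqp4 like Ctr9 (0.91), Kdm2a (0.90) and Ddit3 (0.86). Slc14a1 1369857_a_at was most like Dok7 (0.95), Plod3 and Insrr (0.91 each), and Slc14a2 1371205_at like Nrxn3 (0.92), Zbtb47 and Brd1 (0.89 each).

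Among the members themselves, Aqp7 and Avpr2 1393958_at went together over the 12 pools (r = 0.83, and 0.83 over the 9 pools without A, B and J). The 2 Aqp1 probe sets had an r of 0.86, and 0.57 over those 9 pools. Aqp1 1387651_at and Aqp7 had an r of 0.55 over 12 pools and 0.88 over the 9. Aqp1 1369625_at and Slc14a2 1371205_at ran against each other, with an r of −0.40 over 12 pools and −0.79 over the 9.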

How the data were processed

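Total RNA of left kidney pools was measured on Affymetrix RAE230A and RAE230B arrays with an oligo(dT) primer and biotin label, per the labels' protocols, so that probe sets mostly read the 3′ part of transcripts. The deposited tables give 1 value per probe set and pool, treated here as log2 signal, which was inferred from a range of 4.97 to 15.24 on RAE230A and 4.1 to 14.28 on RAE230B. Summarisation, background correction, normalisation and scanner are not given in the sources used here, and no further scaling was applied. Column medians were 8.49 to 8.6 on RAE230A and 7.55 to 7.62 on RAE230B. There is no read depth, and precision is set by how many arrays there are.

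Gene symbols came from the platform annotation, updated through gene identifiers to RefSeq on GRCr8. A single symbol was found for 12789 of 15866 probe sets on RAE230A (several for 312, none for 2765) and for 7570 of 15276 on RAE230B (several for 100, none for 7606). Members were the probe sets with 1 symbol among the 9 genes. The 57 control probe sets of each array and probe sets under the 30th percentile of mean signal were left out, which left 11106 and 10693. Linear models were fitted per array to all 12 pools with limma 3.58.1 in R 4.3.3 (lmFit, eBayes with a trended prior), with no covariates, as no batch is labelled. P-values are two-sided and were adjusted by Benjamini and Hochberg over all tested probe sets of an array and comparison, with a threshold of 0.05. Each reflects variation among pools of separate rats plus variation of the assay. The script was tested on simulated data. Figures used matplotlib 3.10.9 in Python 3.11.15.

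The members and the gene lists were chosen with earlier results of these data known. All member probe sets are described. For each of the 14 lists (170 genes, 132 tested, 1 probe set per gene, the one with the highest mean), called genes are named together with some of the 3 largest differences per comparison. The lists cover vasopressin signalling, aquaporin 2 traffic, other water and urea genes, Aqp7 partners, and markers of principal cells, intercalated cells, proximal tubule, thick ascending limb, thin limb, inner medulla, urothelium, adipocytes, erythrocytes and endothelium. Alternatives were no filter, a filter at the 50th percentile, quantile normalisation, median centring, no trended prior, array weights, fits of only the strains compared, leaving out each pool in turn, and leaving out S pools A and B with ET3x2 pool J.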

Additional observations from a re-analysis of the deposited data

Results flagged for a closer look

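Over the 19 member probe sets and 3 strains, 57 groups of 4 pools were examined for a pool far from the other 3 of its strain, by Dixon's ratio at a critical value of 0.829. In 3 groups 1 pool stood apart, and chance alone gives about 1 in 20 groups. Aqp4 1372190_at was at 8.12 in ET3x2 pool L and at 7.82 to 7.87 in the other ET3x2 pools. Slc14a2 1398312_s_at was at 8.81 in ET3x1 pool G and at 8.44 to 8.50 in the other ET3x1 pools. Slc14a2 1371204_at, under the filter, was at 6.66 in ET3x2 pool K and at 6.53 to 6.55 in the other ET3x2 pools.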

How the results depend on the processing

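Member calls stayed at 0 in all comparisons and alternatives except array weights, which called 2 member probe sets between ET3x2 and ET3x1 (Aqp7 and Avpr2 1369873_at). Over all probe sets array weights called 1658 in ET3x2 minus ET3x1 against 323, 419 in ET3x2 minus S against 75 and 164 in ET3x1 minus S against 96. Of 771 alternative differences of single member probe sets, 737 kept direction and side of the threshold, 2 passed it and 32 changed sign. The sign changes fell on 12 of 39 differences, none larger than 0.08 in size with all pools.

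Without pools A, B and J these were Aqp1 1369625_at (ET3x2 minus ET3x1, −0.0254), Aqp1 1387651_at (ET3x2 minus S, 0.20), Aqp4 1372190_at (ET3x1 minus S, −0.0127), Aqp7 (ET3x1 minus S, 0.0552), Avpr2 1393958_at (ET3x1 minus S, 0.024) and Slc14a2 1398312_s_at (ET3x2 minus S, −0.0025). With array weights Slc14a1 1369857_a_at was at 0.0075 and Slc14a2 1387550_a_at at −0.0483 in ET3x2 minus S, and with median centring 1387550_a_at was at −0.0002. Leaving out 1 pool gave ET3x2 minus S of −0.33 to 0.13 for Aqp1 1387651_at, −0.0111 to 0.0773 for Avpr2 1369873_at, −0.0524 to 0.0344 for Slc14a1 1369857_a_at and −0.023 to 0.0498 for Slc14a2 1387550_a_at. It gave ET3x1 minus S of −0.18 to 0.0124 for Aqp3, −0.0236 to 0.0697 for Aqp4 1372190_at, −0.11 to 0.0389 for Aqp7, −0.057 to 0.0176 for Avpr2 1393958_at and −0.12 to 0.0358 for Slc14a2 1398312_s_at. It gave ET3x2 minus ET3x1 of −0.0254 to 0.14 for Aqp1 1369625_at and −0.022 to 0.0892 for Slc14a2 1371205_at. The cause of these changes was not tested.

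With 4 pools a strain, member differences of the size seen here did not pass in the main fit after adjustment over all tested probe sets of an array. Before adjustment, 0, 3 and 2 of the 13 had a limma p under 0.05. This was for ET3x2 minus S, ET3x1 minus S and ET3x2 minus ET3x1, against 10.9%, 11.8% and 13.1% of all probe sets. The deposited values carry no detection call, and the background behind dim probe sets such as those of Aqp6 and Slc14a1 is not known. The pools held 3 rats in ET3x2 and ET3x1 and 2 in S, and the shared fit took their spread as equal. No paired analysis was possible because pool letters are not shared between strains.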

Other observations

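In the thick ascending limb and inner medulla lists, 2 further genes with large differences were not yet given, and neither passed the threshold. Slc12a1, the sodium, potassium and chloride carrier of the thick ascending limb, was at 10.54 to 10.78 in ET3x2, 10.73 to 11.00 in ET3x1 and 10.71 to 11.20 in S, and ET3x2 minus S was −0.39 (SE 0.11, limma adjusted p = 0.192). Clu, which encodes clusterin, was at 11.86 to 12.35 in ET3x2, 11.29 to 12.09 in ET3x1 and 11.74 to 12.31 in S, and ET3x2 minus ET3x1 was 0.43 (SE 0.16, limma adjusted p = 0.228).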
